A study of Mus musculus with 20 samples.

Results

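The histone cluster genes encode the histones that are made in bulk while a cell copies its DNA. Here they were taken as every protein-coding gene of the deposited gene table whose symbol begins with Hist1h, Hist2h, Hist3h or Hist4h. The rule gave 66 genes of 48709. The symbols of 68 genes fit the pattern, but 2 of these are listed as pseudogenes. Of the 66 genes, 52 passed the filter on low counts, which left 19797 genes for the tests. RNA came from the right hippocampus of 20 adult C57BL/6 mice (C57BL/6J in the methods), with 5 males and 5 females in each of the control and nPM groups. nPM is nano-sized particulate matter collected from urban air. Dams of the nPM groups had inhaled it from gestational day 2 until birth, for 5 h on each of 3 days in a week, at a concentration of 300 that the labels give in mg/m3 and the methods in μg/m3. Dams of the control groups had breathed filtered air, and the sources name no transgene or deletion in any group. Females were aged 17.71 to 18.29 weeks and males 18.57 to 19.14 weeks by the labels. Sex and age therefore cannot be told apart. The methods also describe injections of EdU, a thymidine analogue that dividing cells take up, for a part of the study made in males. They add that every animal was injected, and do not make clear whether this includes the sequenced females. The labels do not say which samples shared a litter, so p-values measure the spread between these animals, some of which may be littermates.

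DNA wraps around a core of histones H2A, H2B, H3 and H4 to form the nucleosome, and the linker histone H1 binds where DNA enters and leaves it. Each core histone is encoded by many gene copies, most of them in clusters. Nearly all such genes lack introns. Unlike other animal mRNAs, theirs end in a conserved stem-loop rather than a poly(A) tail. The stem-loop binding protein Slbp holds this end through processing and translation, and the mRNA is made mainly in S phase and degraded at its end. Dividing cells are few in the adult hippocampus and include the progenitors of the dentate gyrus and glial precursors. In bulk RNA, fewer cells of a type and less RNA per cell cannot be told apart.

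The stem-loop is shown because it is the feature that sets these mRNAs apart as a class. The pattern, which reads GG, any 2 bases, CTTTT, any base, AG, any 2 bases and CC, was searched on the transcript strand after the stop codon, in the mouse transcripts of GENCODE M21 on GRCm38. It was found in 42 of the 66 genes and in 19 of 22462 other coding genes, or 0.0846%. It lay 21 to 58 bases after the stop codon, with a median of 31.5. The 42 genes carried 6 sequences, the 5 most frequent of which follow with both arms of the stem in capitals.
Shared by 24 genes of H1, H2A, H2B and H3: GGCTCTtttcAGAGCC
Shared by 7 H4 genes, Hist1h4c, Hist1h4d, Hist1h4f, Hist1h4h, Hist1h4m, Hist1h4n and Hist4h4: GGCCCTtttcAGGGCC
Shared by 6 genes of H1, H2B and H3: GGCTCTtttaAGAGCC
Shared by Hist1h4i and Hist2h4: GGCCCTttttAGGGCC
Shared by Hist1h4b and Hist1h4j: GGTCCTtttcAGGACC
The H4 genes shared none of these sequences with the other families. Of the 24 genes without a match, 13 have transcripts annotated to end at the stop codon and 2 have only 1 or 2 bases beyond it, so their 3′ ends are not in the annotation. A further 8 have more bases beyond it but no match there, among them Hist2h2be with 2192, Hist1h2bc with 742 and Hist1h4a with 154. The remaining 1, Hist1h2al, has no coding transcript in GENCODE M21. The match is a description of these letters only. All transcripts of 61 genes have 1 exon, and 5 H2B genes have a transcript with more than 1 exon, among them Hist1h2bc and Hist1h2be.

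The region before the start of transcription was searched on both strands for short motifs known from histone promoters, in RefSeq windows of 250 bases before to 50 bases after the start (GRCm38.p6). A window was matched for 60 of the 66 genes and for 27025 genes in all. TATAAA was in 35 of the 60 windows, or 58.3%, against 15.7% of all genes. CCAAT was in 51, or 85.0%, against 41.1%. It was in every H1, H2A, H2B and H3 window but in only 3 of 12 H4 windows. The octamer ATTTGCAT, known from H2B promoters, was in 13, or 21.7%, against 1.97% of all genes, and these were 7 H2A and 6 H2B genes. However, 12 pairs of an H2A and an H2B gene lie head to head, with 236 to 306 bases between their starts. The windows of such a pair overlap, so the same site can be counted for both genes. Motif counts in H2A and H2B windows, those of the octamer and CCAAT included, are therefore not counts of separate sites. AAACACA, known from H1 promoters, was in 5 of 6 H1 windows and in 8 of the 60, or 13.3%, against 8.22%. GGTTCTC, known from H4 promoters, was in 2 of the 60, or 3.33%, against 5.19%, and both were H4 genes. The 4 windows below belong to the highest H4, H1 and H2B genes and to the H2A partner of Hist1h2bc. The motifs stand in capitals in either orientation, and each window is read toward its gene.
Hist1h4d at chr13:23581318-23581617 on the plus strand: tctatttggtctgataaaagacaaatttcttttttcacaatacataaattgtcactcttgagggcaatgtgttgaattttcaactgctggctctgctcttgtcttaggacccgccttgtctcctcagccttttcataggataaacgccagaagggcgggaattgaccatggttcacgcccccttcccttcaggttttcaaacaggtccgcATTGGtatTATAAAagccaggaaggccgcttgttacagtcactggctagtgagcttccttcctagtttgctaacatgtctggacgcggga
Hist1h1e at chr13:23622509-23622808 on the minus strand: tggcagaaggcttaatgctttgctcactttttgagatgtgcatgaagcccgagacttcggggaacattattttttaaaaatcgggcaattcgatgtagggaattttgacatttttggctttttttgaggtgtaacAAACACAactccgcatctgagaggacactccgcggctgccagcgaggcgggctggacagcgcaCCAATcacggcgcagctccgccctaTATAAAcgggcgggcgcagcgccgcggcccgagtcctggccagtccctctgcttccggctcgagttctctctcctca
Hist1h2ac at chr13:23683910-23684209 on the minus strand: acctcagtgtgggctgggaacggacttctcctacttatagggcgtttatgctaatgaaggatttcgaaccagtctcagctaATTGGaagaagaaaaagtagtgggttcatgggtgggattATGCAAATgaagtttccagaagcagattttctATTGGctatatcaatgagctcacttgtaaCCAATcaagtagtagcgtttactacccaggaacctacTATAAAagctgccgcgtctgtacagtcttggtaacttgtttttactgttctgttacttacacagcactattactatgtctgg
Hist2h2bb at chr3:96269450-96269749 on the plus strand: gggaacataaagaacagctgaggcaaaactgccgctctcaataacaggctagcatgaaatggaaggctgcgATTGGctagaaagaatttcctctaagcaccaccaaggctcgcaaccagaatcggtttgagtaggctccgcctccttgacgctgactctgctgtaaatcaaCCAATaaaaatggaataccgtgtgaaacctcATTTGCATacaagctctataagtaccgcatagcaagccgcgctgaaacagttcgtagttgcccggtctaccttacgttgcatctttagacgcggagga
TATAAA began 32 bases before the start in Hist1h4d and Hist1h2ac and 27 bases before it in Hist1h1e. Hist2h2bb had no TATAAA in this window, but it had the octamer 48 bases before the start.

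Libraries held 19092067 to 38663408 counts. Counts were scaled to a library total of 1000000 (CPM). Where a gene had no count, counting error alone still allows 3 counts, which is 0.0776 to 0.157 CPM depending on the library. Of the 66 genes, 48 were counted in every sample, 5 never had more than 3 counts in a sample, and of these Hist2h3c1 and Hist1h2aa had 0 in all 20. Marker genes of hippocampal neurons, glia and microglia were present in every sample, and markers of choroid plexus, a tissue next to the hippocampus, varied most. The summed level of 10 choroid plexus markers was 295 to 996 CPM in control females, 281 to 14209 in nPM females, 254 to 12053 in control males and 377 to 8900 in nPM males. Their part in the results that follow was not tested.

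The 4 clusters contributed unequally. Cluster 1 on chromosome 13 holds 53 of the genes and gave 77.6% of their counts. Cluster 2 on chromosome 3 holds 10 and gave 13.1%, cluster 3 on chromosome 11 holds 2 and gave 7.04%, and Hist4h4 on chromosome 6, alone in cluster 4, gave 2.28%. By family, H4 gave 39.6% of the counts from 13 genes, H2B 26.0% from 16, H1 21.2% from 6, H2A 8.04% from 19 and H3 5.26% from 12. The counts rested on few genes, as the 5 with the most counts held 41.2% of them and the first 10 held 63.0%.

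Levels of different genes were compared per length, as the mean over 20 samples of CPM per kilobase of gene length (RPKM). Hist1h4d (chr13:23581598-23581990, plus strand), one of 13 genes for H4, was highest at 101 RPKM. Hist1h4c (chr13:23698060-23698454) followed at 46.6, and the H2B gene Hist2h2bb (chr3:96269752-96270132) at 42.1. The next were the H1 gene Hist1h1e (chr13:23621755-23622502) at 29.9, Hist1h4h at 25.1, the H2B gene Hist1h2bc at 24.5, Hist1h4f at 21.1 and Hist1h4n at 18.4. The H1 genes Hist1h1c and Hist1h1d were at 13.2 and 13.1. H2A and H3 genes were lower, the highest being Hist3h2a at 6.54 and Hist1h3d at 4.79. The highest of cluster 3 was the H2B gene Hist3h2ba at 10.8, and Hist4h4 was at 2.30. Over all members of a family the median was 11.4 RPKM for H1, 6.03 for H4, 2.69 for H2B, 1.09 for H3 and 0.812 for H2A. Among the 52 tested genes the highest mean was 352 times the lowest, 0.286.

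Many copies of one core histone are nearly alike in sequence, and the rule of the counting for reads with several alignments is not given in the sources used here. The share of 50-base windows of a coding sequence that also occurred in another gene was therefore set beside the level, for the 65 genes with a coding sequence in GENCODE M21. The 33 genes that shared 75% or more of their windows had a median of 0.986 RPKM. The 16 genes from 50% to 75% had 4.29, the 5 from 25% to 50% had 13.1 and the 11 under 25% had 3.99. Hist1h4d shared 42.7%, Hist1h4c 58.1% and Hist2h2bb none. Hist1h4n and Hist1h2bc were exceptions, with 100% and 97.6% shared at 18.4 and 24.5 RPKM. The coding sequence of Hist1h4n is identical to that of Hist1h4m, so the values of these copies are uncertain. Identical pairs are also Hist2h2aa2 and Hist2h2aa1, Hist2h3c2 and Hist2h3c1, and Hist1h2br and Hist1h2bq. Among H2A copies of equal length 2 pairs were identical, and only Hist2h2aa2 and Hist2h2aa1 are named here. Between copies of equal length the median identity of coding sequences was 97.2% for H3, 96.7% for H2A, 95.2% for H2B and 93.9% for H4. The lowest identity was 93.6%, 77.7%, 82.8% and 85.4% in that order. H1 is not included, and its genes shared 0% to 26.5% of their 50-base windows. In addition, 24 genes overlap another annotated gene, 22 of them on the opposite strand, and no strand setting is given. Hist2h2bb and Hist2h3b both overlap the antisense gene Gm20628, which had a mean of 76.3 counts.

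**Figure D1:**
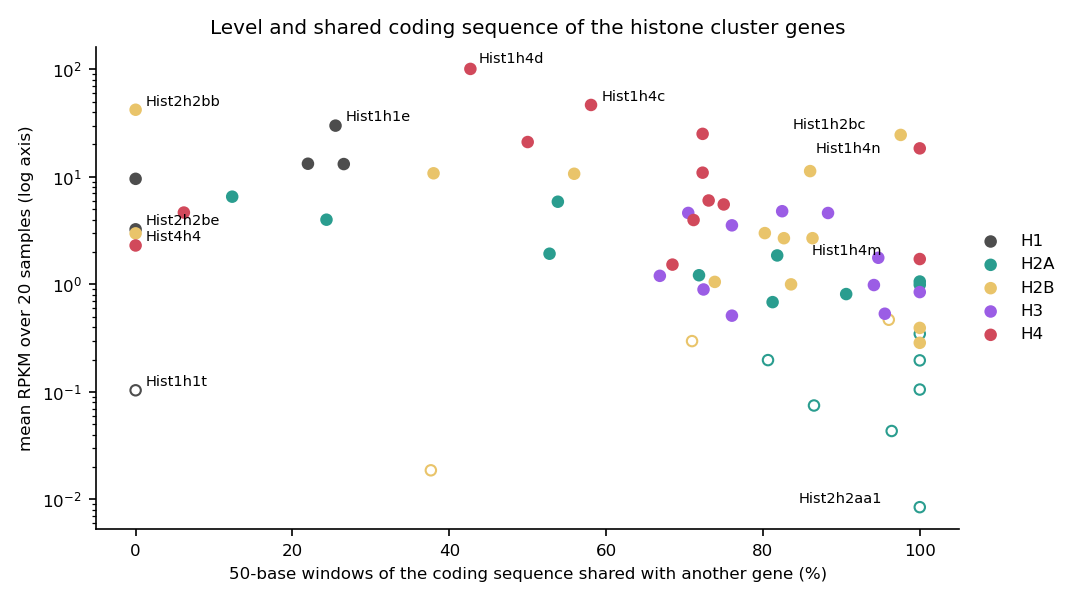
Mean level of each gene (RPKM over 20 samples, log axis) against the share of 50-base windows of its coding sequence that occur in another gene, coloured by family, with open symbols for genes that did not pass the filter on low counts. Genes at 0 in every sample are not drawn. Hist1h4d is highest at 101 RPKM with 42.7% shared, and the genes at 75% or more have a median of 0.986 RPKM.

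H2A and H2B genes often lie head to head and share the DNA between their starts. There were 12 such pairs, with 236 to 306 bases between the starts. H2B was the higher gene in 11 of the 12, the exception being Hist2h2ac at 5.87 RPKM beside Hist2h2be at 2.98. That exception depends on the annotated lengths, 520 and 2620 bases, since in CPM Hist2h2be was the higher in every sample. Only 6 of the 12 pairs had both genes tested. Among the rest, Hist1h2ba never had more than 2 counts in a sample, beside 0 for Hist1h2aa. Hist1h2br at 0.394 RPKM lay close to Hist1h2ap at 0.346, and both shared 100% of their 50-base coding windows with another gene. The H2A genes Hist1h2ag and Hist1h2ao also shared 100%. The part of shared sequence in the order of the pairs was not tested. The 6 pairs with both genes tested differed 1.23-fold to 16.5-fold. Hist1h2ae had 0.684 RPKM and its partner Hist1h2bg 11.3. Hist1h2ac, whose window is printed above, had 1.86 RPKM and Hist1h2bc 24.5, which is 13.2-fold higher although their starts are 275 bases apart.

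The summed level of the 66 genes varied 3.52-fold between samples. It was 269, 234, 197, 256 and 216 CPM in control females 1 to 5, with a mean of 235 ± 29.0 (SD, n = 5). In nPM females it was 376, 249, 280, 121 and 303 CPM, or 266 ± 93.5 (SD, n = 5). In control males it was 232, 302, 290, 427 and 352 CPM, or 320 ± 73.3 (SD, n = 5), and in nPM males 274, 373, 356, 351 and 333 CPM, or 337 ± 38.1 (SD, n = 5). nPM female 4 was far below the other females, and control male 4 was the highest of all. The groups overlapped. The mean of nPM was 1.05 times the control mean in males and 1.13 times in females, where the log2 ratio was 0.18. Leaving out nPM female 4 raised that log2 ratio to 0.36, whereas leaving out nPM female 1 lowered it to 0.02. Without control male 1, the nPM mean of males lay just below the control mean, at a log2 ratio of -0.02. No test was made of this sum.

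**Figure D2:**
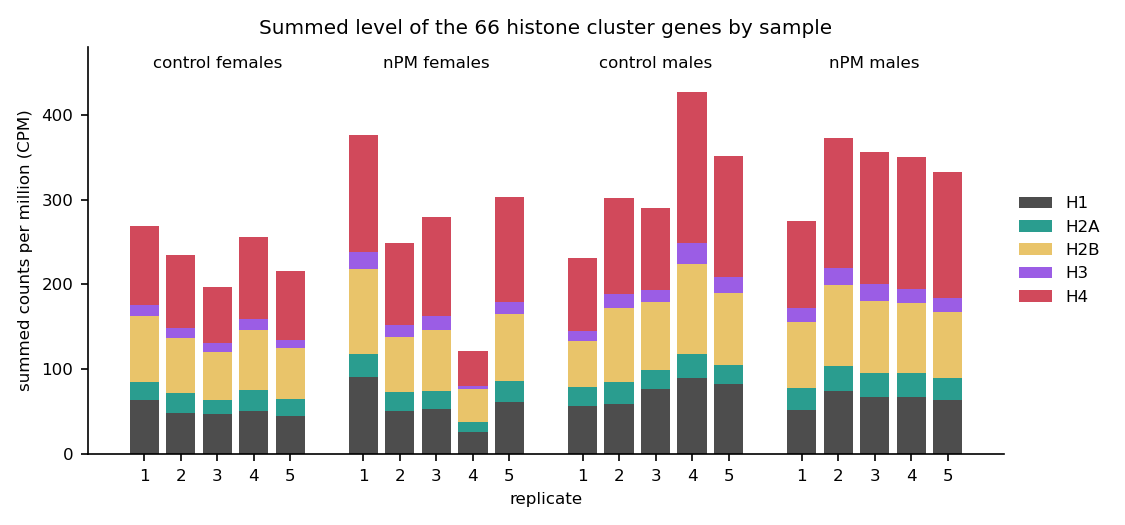
Summed level of the 66 genes in CPM for each of the 20 samples, by group and replicate, with the 5 histone families stacked. nPM female 4 is lowest at 121 CPM and control male 4 highest at 427 CPM.

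By family, H4 was 33.9% to 38.0% of the summed counts in control females and 33.9% to 42.0% in nPM females. In males it was 33.0% to 41.7% in controls and 37.4% to 44.6% after nPM. The share of H1 in nPM males was 19.0% to 19.8%, near the bottom of the 19.6% to 26.4% in control males. The ranges overlapped in both sexes.

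Of the libraries that stood apart, nPM female 4 was the shallowest, with 19092067 counts. It was the lowest female for 45 of the 52 tested genes, or 86.5%, against 30.7% of all genes tested. It also had 473 CPM of small nucleolar RNA, the lowest of the females, whose median was 980 CPM. Control male 1 was the lowest male for 24 of the 52, or 46.2% against 23.9% of all genes, with 344 CPM of small nucleolar RNA and a median of 845 in males. nPM female 1 was the highest female for 30 of the 52, or 57.7% against 15.3%. It had 7661 CPM of Ttr, the transthyretin transcript that marks choroid plexus, which ranged from 10.3 to 7661 CPM over the samples. The part of these features in the histone values was not tested, and the results that rest on nPM female 4 are given with and without it.

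The histone genes were more variable within groups than other genes. The median SD of log2 CPM within groups was 0.58 for the 52 tested genes and 0.26 for all genes tested. For the 16 with a mean of 200 counts or more it was 0.41, against 0.19 for 6262 genes in the same range of mean counts. Of these 16, Hist2h2be (chr3:96221119-96223738), an H2B gene with an annotated length of 2620 bases, had the smallest SD, 0.14.

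The first comparison asked whether gestational nPM was followed by a lasting difference in histone transcripts, with sex as a covariate. With limma-voom, 0 of the 52 genes had p under 0.005, where 0.141% of all genes tested did. At p under 0.05 it was 1 gene, against 2.10% of all genes, and edgeR and DESeq2 each gave 0 at 0.005 and 2 at 0.05. No gene of either kind passed a Benjamini-Hochberg adjusted p of 0.05. The median log2 fold change was 0.14 over the 52 genes, 36 of them above 0, and -0.01 over all genes, 47.0% of them above 0. By family the median was 0.25 in H4, with 13 of 13 genes above 0. It was 0.16 in H2B with 8 of 13, 0.13 in H2A with 9 of 10, -0.00015 in H3 with 5 of 11 and -0.08 in H1 with 1 of 5. The median standard error was 0.22 for the histone genes and 0.11 for all genes, so differences of small size were not detectable.

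Hist1h4h (chr13:23531050-23531522), an H4 gene, had the smallest p. Its levels were 8.76, 8.08, 5.25, 9.75 and 8.56 CPM in control females and 17.8, 9.94, 13.2, 4.24 and 13.1 in nPM females. In males they were 8.03, 11.1, 8.44, 19.7 and 14.4 CPM in controls and 11.9, 15.8, 15.7, 17.1 and 16.4 after nPM. All nPM females but replicate 4 lay above the highest control female, while in males control replicate 4 was above all nPM samples, so the groups overlapped in both sexes. The log2 fold change was 0.39 (SE 0.188), with a limma p of 0.0486 and an adjusted p of 0.9998. Within a sex the two-sided exact permutation p was 0.310 in females and 0.190 in males, where 5 against 5 cannot go below 0.00794. Of the 42 permutation tests made on named genes, the smallest Benjamini-Hochberg adjusted p was 0.773.

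Hist1h4b (chr13:23757013-23757409) came next, another H4 gene. It was at 1.35, 1.94, 1.44, 1.86 and 1.97 CPM in control females and at 2.53, 2.73, 2.40, 0.629 and 2.72 in nPM females. In males it was at 1.46, 3.08, 1.81, 2.69 and 2.25 CPM in controls and at 1.77, 3.40, 4.30, 3.90 and 3.63 after nPM. In each sex 4 of 5 nPM samples were above every control sample and 1 was among or below them, nPM female 4 and nPM male 1. The log2 fold change was 0.43 (SE 0.218, limma p 0.0622). Hist1h2bl, an H2B gene of only 1 to 22 counts per sample, followed with 0.56 (SE 0.308, limma p 0.0826). The most abundant gene, Hist1h4d, was at 36.5, 32.1, 27.2, 31.7 and 26.5 CPM in control females and 44.2, 37.0, 40.5, 13.7 and 42.4 in nPM females. In males it was at 27.9, 39.4, 36.0, 58.7 and 50.8 CPM in controls and 35.8, 51.1, 51.0, 55.4 and 54.6 after nPM. Here too 4 nPM females were above all control females and the fourth replicate was below them, and the males overlapped. Its log2 fold change was thus 0.18, with SE 0.159 and a limma p of 0.263.

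**Figure D3:**
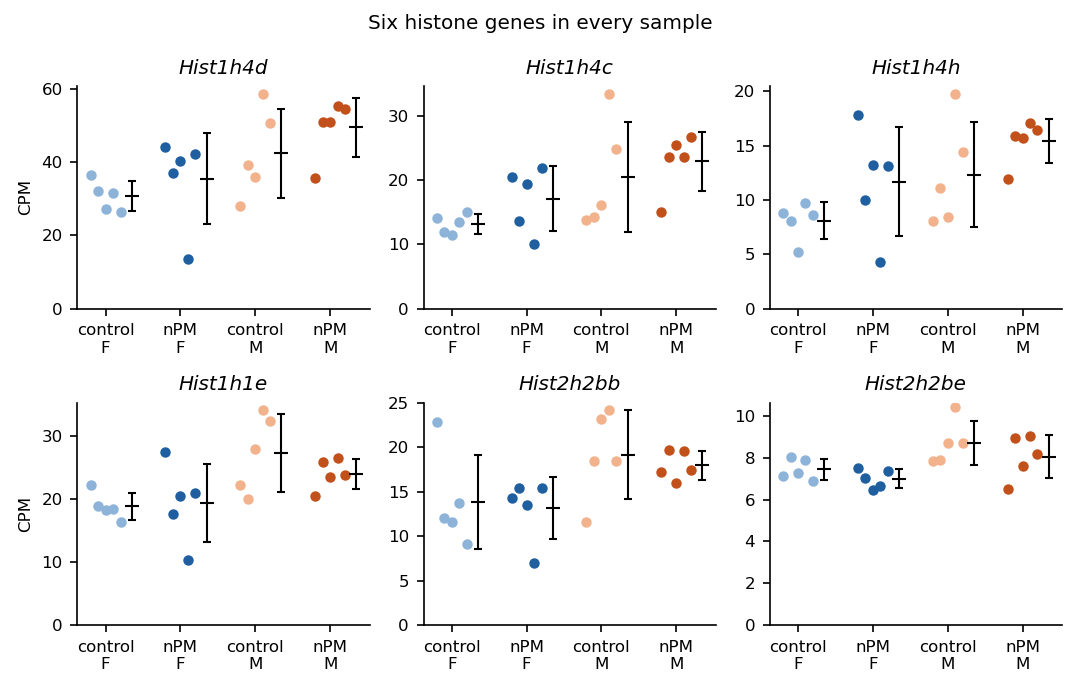
Level of 6 histone genes in CPM in each sample of the 4 groups (F, females; M, males), with each group's mean and SD beside its points (n = 5). For Hist1h4d, 4 nPM females lie above the control females and nPM female 4 lies below them at 13.7 CPM.

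In males alone, limma-voom called 0 of the 52 genes at p under 0.005, against 0.207% of all genes, and 0 at p under 0.05, against 4.28%. edgeR called 0 and 1 at these thresholds, and DESeq2 0 and 2. The median log2 fold change was 0.10, with 35 of 52 genes above 0 where 49.6% of all genes were. H1 and H4 lay on opposite sides, with medians of -0.21 for H1, where 1 of 5 genes was above 0, and 0.20 for H4, where 12 of 13 were. Hist1h1e, which encodes a linker histone, was at 22.3, 19.9, 27.9, 34.1 and 32.4 CPM in control males and 20.4, 25.9, 23.6, 26.5 and 23.8 in nPM males. Its groups overlapped, and 3 of the controls were above every nPM sample (log2 fold change -0.21, SE 0.146, limma p 0.172). Hist3h2ba (chr11:58948920-58949533), an H2B gene of cluster 3, had the smallest p. It was at 6.96, 5.69, 8.23, 10.4 and 8.55 CPM in control males and 6.74, 6.41, 5.55, 6.93 and 6.86 in nPM males. All controls but replicate 2 were above every nPM male. The log2 fold change was -0.33 (SE 0.152, limma p 0.0520, exact permutation p 0.0952). Without control male 2 it was -0.45 with p 0.00485, and without control male 4 it was -0.22 with p 0.138. Only the first of these passed 0.005 among the 10 limma fits that each left out 1 male. Hist2h3b, an H3 gene of 3 to 31 counts per sample, had -0.51 (SE 0.274, limma p 0.0883), and Hist1h4b 0.51 (SE 0.275, limma p 0.0888). Without nPM male 1 the limma value of Hist1h4b was 0.74 with p 0.00325, and without control male 1 it was 0.38 with p 0.196.

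In females, 0 of the 52 genes were called at p under 0.005 by limma-voom, where 0.0909% of all genes were. At p under 0.05 it was 1 gene, against 1.99% of all genes, and edgeR and DESeq2 each gave 0 and 2. The median log2 fold change was 0.20, and 43 of 52 genes were above 0 where 51.2% of all genes were. It was 0.35 in H4, with 13 of 13 genes above 0. Hist1h4c had the smallest p. It was at 14.1, 11.9, 11.4, 13.4 and 15 CPM in control females and 20.5, 13.6, 19.3, 10.1 and 21.9 in nPM females. Replicates 1, 3 and 5 of nPM were above all controls, and replicate 4 was below them. The log2 fold change was 0.41 (SE 0.173, limma p 0.0349, exact permutation p 0.175). Hist1h2ak, an H2A gene of 5 to 44 counts per sample, followed with 0.73 (SE 0.339, limma p 0.0504), and Hist1h4h with 0.53 (SE 0.298, limma p 0.0991).

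Leaving out nPM female 4 changed this comparison. That library was chosen after its values had been seen, as the lowest female for 45 of the 52 genes. Leaving it out raises the nPM means of those genes, so the direction and counts that follow are no independent test. Of the 52 genes, 6 then had p under 0.005, all of them higher in nPM females, where 0.187% of all genes tested were higher at that threshold and 0.242% differed in either direction. They were named after their values had been seen. Hist1h4d was 0.43 higher on the log2 scale (SE 0.0972, limma p 0.000945), Hist1h4c 0.54 (SE 0.131, p 0.00163) and Hist1h4h 0.78 (SE 0.199, p 0.00237). Hist1h4b was 0.63 higher (SE 0.178, limma p 0.00445). All 4 encode H4. Hist1h2bl, for H2B, was 1.39 higher (SE 0.342, limma p 0.00180) and Hist1h2ak, for H2A, 0.98 (SE 0.249, p 0.00223). The adjusted p was 0.979 for each of them, so none passed that threshold. Leaving out nPM female 1 instead moved Hist1h4h the other way, to 0.34 (limma p 0.248). The median log2 fold change of the 52 genes was 0.47 without nPM female 4, and 50 of them were above 0. The same values over all genes are not given here for that fit. The medians by family were 0.57 in H3, 0.56 in H4, 0.42 in H2B, 0.35 in H2A and 0.34 in H1. In both sexes together 1 of the 52 genes passed 0.005 without nPM female 4, against 0.237% of all genes. This was Hist1h4b, at 0.56 (SE 0.171, limma p 0.00394).

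**Figure D4:**
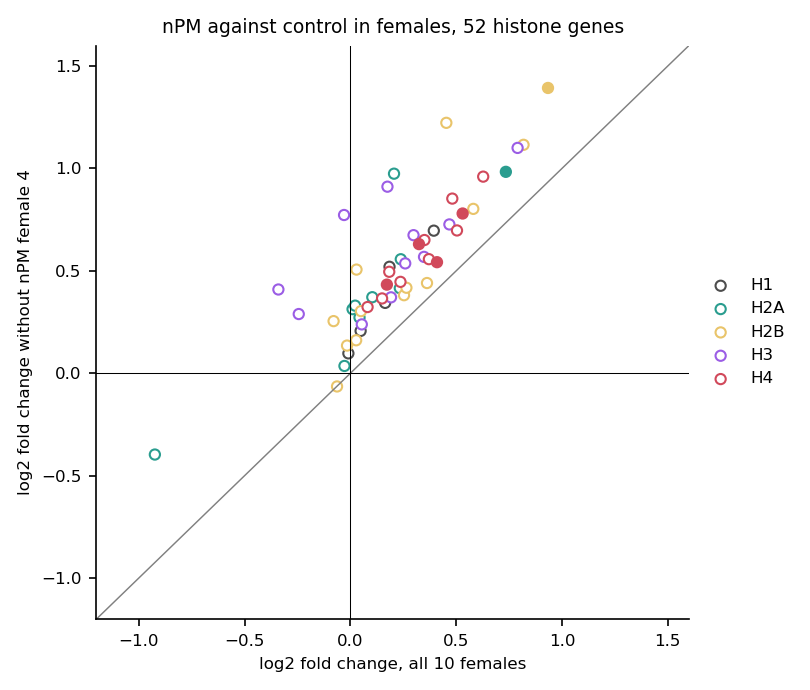
Log2 fold change of nPM against control in females for the 52 tested genes, with all 10 females (horizontal axis) and without nPM female 4 (vertical axis), coloured by family. The diagonal marks equal values, filled points are the 6 genes with p under 0.005 without that library, and 50 of the 52 genes lie above 0 on the vertical axis.

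The difference of the nPM effect between the sexes was tested as an interaction, males minus females. limma-voom called 0 of the 52 genes at p under 0.005, against 0.217% of all genes, and 0 at p under 0.05, against 3.79%. edgeR gave 0 and 1, and DESeq2 0 and 0. The median was -0.14, and 16 of 52 genes were above 0, where over all genes the median was 0.01 and 52.5% were above 0. Leaving out nPM female 4 left 3 of 10 H2A genes, 1 of 13 H2B genes and 0 H1, H3 or H4 genes above 0. In that fit limma called 0 genes of each family at 0.005. At p under 0.05 it gave 2 genes each in H1, H2B and H3 and 1 each in H2A and H4. The share of all genes in that fit is not given here. With all 20 samples, Hist1h2bf (chr13:23573736-23574196), an H2B gene, had the smallest p. It was at 0.910, 1.11, 0.704, 1.18 and 1.21 CPM in control females and 1.61, 0.895, 1.32, 0.890 and 1.57 in nPM females. In males it was at 1.89, 1.91, 1.03, 2.15 and 1.95 CPM in controls and 1.15, 1.92, 1.71, 1.28 and 1.25 after nPM. In females 3 nPM samples were above all controls. In males 4 nPM samples were below all controls but replicate 3, so the groups overlapped in both sexes. The interaction was -0.68 (SE 0.333, limma p 0.0533), from 0.36 in females and -0.34 in males. Hist1h2ak had -0.66 (SE 0.414, limma p 0.126). Hist2h2aa2, an H2A gene with an identical copy, had the largest value, 1.83 (SE 1.22, limma p 0.150). It rested on control female 2 at 4.61 CPM, where the other control females had 0.0640 to 0.269, and without that library it was 0.95.

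**Figure D5:**
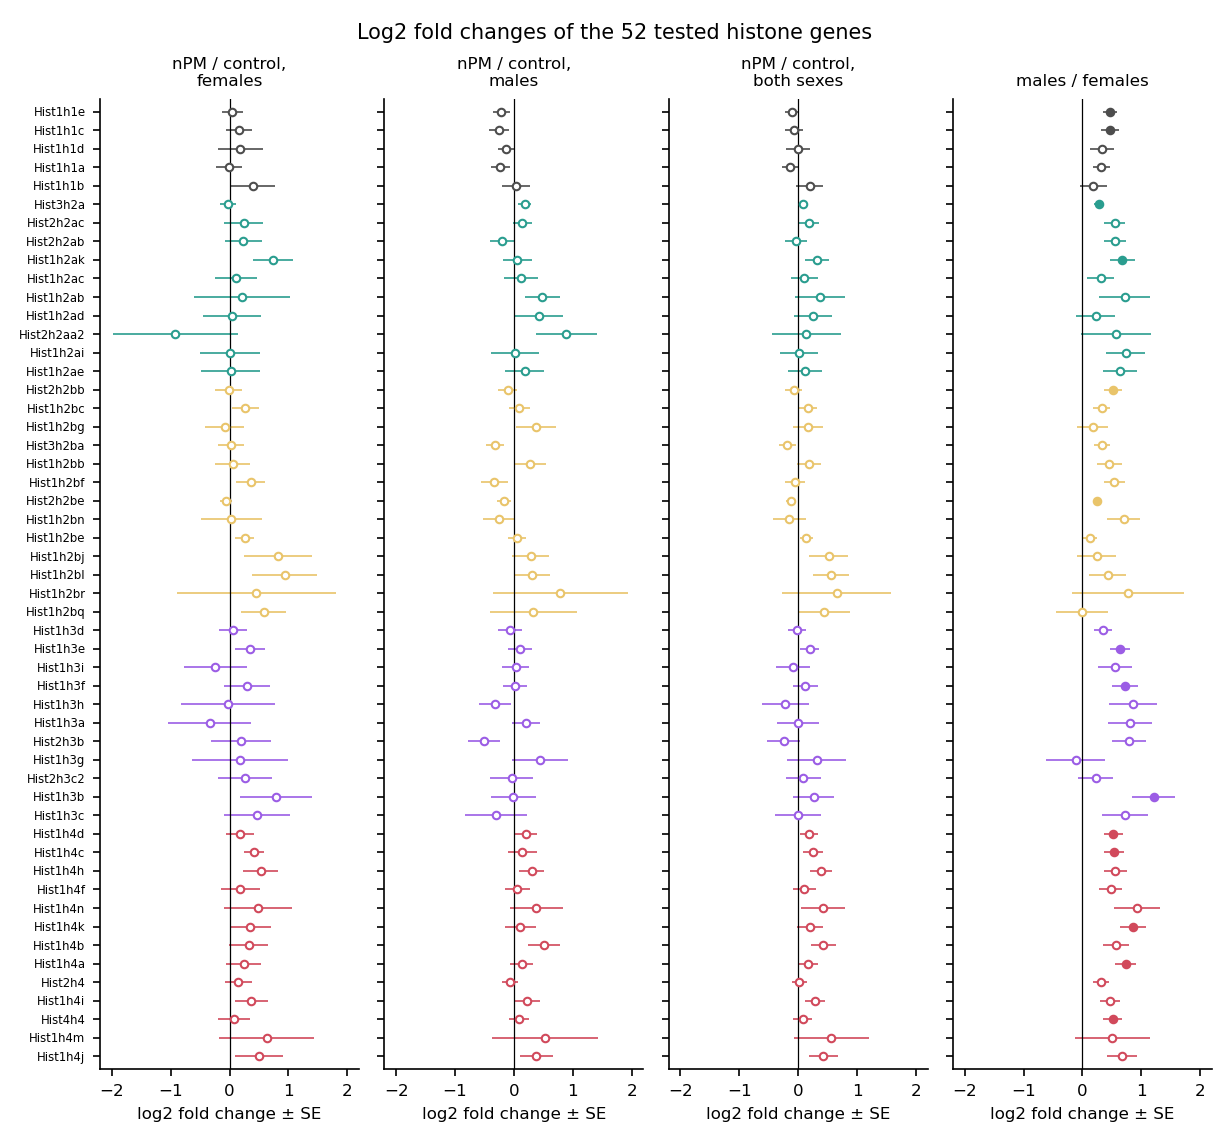
Log2 fold changes with standard errors of the 52 tested genes in 4 limma-voom fits (nPM against control in females, in males and in both sexes, and males against females), ordered by family and level: grey H1, green H2A, yellow H2B, purple H3, red H4. Filled points have p under 0.005, and these are the 14 genes of the fit by sex.

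Between the sexes the histone genes differed in 1 direction. With exposure as a covariate, limma-voom gave 14 of 52 genes with p under 0.005, all higher in males. That is 26.9%, against 13.9% of all genes tested that were higher in males and 31.1% that differed in either direction. At p under 0.05 it was 35 genes, 67.3% against 23.3%, and at an adjusted p under 0.05 it was 22 genes, 42.3% against 18.8%. In 50 of 52 genes the value was above 0, with a median log2 difference of 0.52, while over all genes the median was 0.02 and 52.2% were above 0. Leaving out nPM female 4 lowered the median of every family, from 0.72 to 0.44 in H3 and from 0.54 to 0.39 in H4. The median fell from 0.56 to 0.35 in H2A, from 0.33 to 0.26 in H1 and from 0.33 to 0.24 in H2B. Values over all genes are not given here for that fit. With all samples, other short transcripts lay on the same side. Of 458 other protein-coding genes under 1000 bases, 82.1% were above 0, with a median of 0.30. The 9 tested histone genes of 1000 bases or more had a median of 0.28 and the 43 shorter ones 0.55. Small nucleolar RNAs lay on the other side, with a median of -0.46. So did other classes of the annotation, with medians of -1.04 for sense_intronic, -0.88 for TEC, -0.62 for miRNA and -0.17 for lincRNA genes. Over all protein-coding genes the median was 0.07, with 59.4% above 0. The part of this difference between RNA classes in the histone values was not tested. With age as a further covariate, 0 of the 52 genes and 84 of all genes had p under 0.005 by limma, where 6147 of all genes had without it. Of the 52, 2 had p under 0.05, and 34 were above 0 with a median of 0.24. The ages of the sexes did not overlap, so this fit cannot separate age from sex.

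Hist1h4a (chr13:23760692-23761230), an H4 gene, had the smallest p by sex. In females its lowest, median and highest levels were 1.05, 2.31 and 3.25 CPM, and in males 2.34, 3.68 and 4.71. All 10 males were above the median of the females, although the sexes overlapped. The log2 difference was 0.73 (SE 0.178, limma p 0.000496, adjusted p 0.00255). Hist1h1e had 10.3, 18.6 and 27.4 CPM in females and 19.9, 24.9 and 34.1 in males, with a log2 difference of 0.47 (SE 0.122, limma p 0.000917). Hist2h2bb had 7.02, 13.6 and 22.8 CPM in females and 11.6, 18.5 and 24.1 in males (0.52, SE 0.147, p 0.00201 by limma). The lowest female of all 3 genes was nPM female 4. The long Hist2h2be was narrow in both sexes, with 6.44, 7.2 and 8.04 CPM in females and 6.53, 8.43 and 10.4 in males, and differed by 0.25 (SE 0.0748, limma p 0.00272).

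The other H4 genes called by sex were Hist1h4k at 0.86, Hist1h4c at 0.54, Hist1h4d at 0.52 and Hist4h4 (chr6:136801553-136804415) at 0.51 on the log2 scale. The H3 genes were Hist1h3b at 1.21, Hist1h3f at 0.73 and Hist1h3e at 0.64, of which Hist1h3b had only 1 to 24 counts per sample. The H2A genes were Hist1h2ak at 0.67 and Hist3h2a (chr11:58954685-58956830) at 0.28, and the second H1 gene was Hist1h1c at 0.47. All 5 families were thus represented. The number of called genes moved with single libraries. It was 5 to 9 without any 1 of control females 1 to 5, control males 4 and 5, nPM female 4 and nPM males 2 to 5, and 19 without nPM female 1. The share of all genes called in these fits is not given here, so the move cannot be set beside theirs. Hist1h1e, Hist1h3e, Hist1h4a, Hist1h4k and Hist2h2bb stayed under 0.005 in all 20 fits that left out 1 library.

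Genes that act on histone mRNA and protein were counted from lists. By sex, their counts at p under 0.005 stand against 13.9% of all genes that were higher in males and 17.1% that were lower. Of 21 genes for 3′ end processing and histone gene transcription, none passed p under 0.005 by limma-voom in the nPM or interaction fits, and none passed p under 0.05 in those fits. Slbp, which binds the stem-loop, had a mean of 15.8 CPM and a log2 fold change of -0.10 in both sexes (limma p 0.299). By sex 5 were higher in males, Slbp, Coil, Cpsf2, Ncbp2 and Cstf2t, by 0.21 to 0.34 on the log2 scale. Sympk, a scaffold of the cleavage complex, Ice1 and Cramp1l were lower, with log2 differences of -0.26, -0.24 and -0.45. Ice1 and Cstf2t had the highest means of the list, 125 and 123 CPM. Of 12 tested variant histones, many of which cells also make outside S phase, none was called for nPM. H3f3a at 0.46, H3f3b at 0.41, H2afz at 0.53, H2afj at 0.32 and H1f0 at 0.44 were higher in males and Cenpa, the centromeric H3, was lower at -0.45. H3f3b and H3f3a had the highest means, 163 and 116 CPM. Of 19 histone chaperones, none was called for nPM. By sex 6 were higher in males (Anp32e, Rbbp4, Rbbp7, Nap1l4, Asf1a and Npm1) and 3 lower (Cabin1, Ubn1 and Hira, which together form a complex that places variant H3 outside S phase). The highest means were those of Atrx, 498 CPM, and Nap1l1, 181 CPM.

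Of 24 tested genes of S phase and mitosis, none passed p under 0.005 by limma-voom in the nPM or interaction fits. At p under 0.05 there was 1 in females, 2 in males and 2 in the interaction, against 1.99%, 4.28% and 3.79% of all genes. In females 21 of the 24 were above 0 with a median of 0.13, against 51.2% of all genes, and in males 12 were, against 49.6%. Mki67, a marker of cycling cells, had a mean of 3.38 CPM. Top2a, which unlinks DNA strands before division, had 3.23, with a log2 fold change of 0.70 in females (limma p 0.0256) and an interaction of -1.02 (limma p 0.0164). It was at 7.01 CPM in nPM female 1, at 2.12 to 4.29 in the other nPM females and at 2.15 to 3.35 in control females, so the groups overlapped. Mki67 and Top2a were named after their values had been seen. By sex 1 of the 24 was called, Pcna, the clamp of the DNA polymerases, 0.38 higher in males. Pcna and Rrm1, a subunit of ribonucleotide reductase, had the highest means, 39.9 and 20.5 CPM.

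No marker list of the 12 cell types had a gene at p under 0.005 by limma-voom in the nPM or interaction fits. By sex 2 of 5 microglia markers, 1 of 4 dentate granule neuron markers and 1 of 4 astrocyte markers were higher in males at that threshold, where 13.9% of all genes were. No marker was called by sex in the lists for choroid plexus, ependyma, meningeal fibroblasts, blood, oligodendrocyte precursors, oligodendrocytes, immature neurons, pyramidal neurons or interneurons. Choroid plexus markers nevertheless had a median log2 difference of 1.25 between the sexes, with 10 of 10 above 0, and of 0.88 for nPM in females, with 9 of 10 above 0. For nPM in males their median was -0.36, with 1 of 10 above 0. Meningeal fibroblast markers had a median of 0.56 for nPM in females, with 6 of 6 above 0, and of -0.41 in males, with 0 of 6. Summed microglia markers were 185 to 238 CPM in control females, 187 to 289 in nPM females, 236 to 275 in control males and 255 to 283 in nPM males. Their part in the histone values was not tested.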

How the data were processed

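RNA of hippocampus was depleted of ribosomal RNA (RiboZero Gold) and sequenced (Illumina). Per the methods and the labels, the authors trimmed reads with Trimmomatic where needed, used HISAT2 to align them to mm10 and featureCounts 1.5.0-p3 to count reads on the genes of Gencode M11. The strand setting and the rule for reads with several alignments are not given in the sources used here, which touches genes with close copies or antisense neighbours. The deposited values are raw counts, unpooled. The authors also deposited gene lengths and a mean RPKM over the 20 samples, which matched the recomputed one within 4.37e-11.

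Here CPM were counts over each library's total. The filter on low counts was filterByExpr with the 4 groups (minimum count 10, minimum total 15). Counts were scaled by TMM (factors 0.958 to 1.06) and fitted across all kept genes by limma-voom (limma 3.58.1, edgeR 4.0.16, R 4.3.3), two-sided, with the study's threshold of 0.005 for p. Benjamini-Hochberg adjustment ran over all 19797 genes. Single genes were compared within a sex by exact permutation of log2 CPM. Alternatives were edgeR's quasi-likelihood test, DESeq2 1.42.0, RLE scaling, other filters, protein-coding genes only, quality weights, age, a replicate block and each sample left out. The fits were tested on simulated data. Sequences came from GENCODE M21 and RefSeq (GRCm38.p6), read with Python 3.11.15.

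The genes named were those under 0.005 in any fit, the 3 with the smallest p in each fit, the 10 with the highest RPKM, the highest of each family and cluster, and those set apart by length or overlap. Of the other lists, these were genes under 0.005 and the 2 with the highest CPM. The genes, lists and tests were chosen with earlier results of these data known. The lists covered histone mRNA 3′ end processing and transcription, variant histones, chaperones, S phase and mitosis, and markers of 12 cell types.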

Additional observations from a re-analysis of the deposited data

Results flagged for a closer look

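The levels of 26 named genes and the summed level of the 66 histone genes were examined in each group of 5 for a sample whose gap to its nearest neighbour was large against the range of the group. Of 108 group values, 13 were picked out. Chance alone gives about 1 in 20 where the values are independent. These are not, as they come from the same 20 libraries and include the summed level, and many genes were named for their values. The 13 therefore cannot be set against that rate. Of the 13, 5 were nPM female 4, 4 were nPM male 1 and the others were 4 control samples.

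nPM female 4 was the lowest of its group for Hist1h4d at 13.7 CPM (others 37.0 to 44.2), Hist2h2bb at 7.02 (13.4 to 15.5) and Hist1h3e at 1.41 (3.66 to 4.38). It was also the lowest for Hist1h4b at 0.629 CPM (others 2.40 to 2.73) and Hist1h2bl at 0.0524 (0.518 to 0.662). These are genes of H4, H2B and H3, from 2 clusters. The library was also the shallowest and had little small nucleolar RNA, and the part of either in these values was not tested.

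nPM male 1 was the lowest nPM male for the H4 genes Hist1h4d at 35.8 CPM (others 51.0 to 55.4), Hist1h4c at 15 (23.6 to 26.7) and Hist1h4h at 11.9 (15.7 to 17.1). It was the highest for the H2A gene Hist2h2aa2, at 1.28 CPM (others 0.273 to 0.512).

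Control female 1 was highest for the H1 gene Hist1h1c at 20.1 CPM (others 15.1 to 16.1). Control female 2 was highest for Hist2h2aa2 at 4.61 CPM (0.0640 to 0.269) and control female 4 for the H3 gene Hist1h3b at 0.310 CPM (0.0640 to 0.135). Control male 3 was lowest for the H2B gene Hist1h2bf at 1.03 CPM (1.89 to 2.15).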

How the results depend on the processing

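The 5 counts of histone genes at p under 0.005 and the 3 ratios of the summed level were recomputed under each alternative. A count moved by over 1.5 times or away from 0 in 24 cases, and 177 values did not move. The values of named genes kept their direction in every alternative run, but 156 of them were weaker than in the main fit, 11 were stronger and 550 the same. In both sexes the count for nPM was 0, and 1 with sample quality weights or without both libraries lowest in small nucleolar RNA (nPM female 4 and control male 1, chosen after seeing the data). It was 0 to 1 with each sample left out, in males also 0 to 1 and in females 0 to 6. In females it was 6 without both libraries, and in the interaction 1. In sex the count of 14 was 5 among genes with a mean of at least 50 counts, 6 among protein-coding genes alone, 7 with the replicate block, 0 with age as a covariate and 5 to 19 with each sample left out. It was 11 with edgeR and 17 with DESeq2. For these alternatives the share of all genes called is not given here, apart from the fit with age and the nPM fits without nPM female 4. The same holds for the edgeR and DESeq2 counts of the nPM and interaction fits. Such counts alone do not show whether histone genes moved more than other genes. Without the filter on low counts the median of all genes by sex was -0.10, against 0.02 with it.

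The replicate block left 0 genes called in each nPM fit. Replicate numbers did not pair the samples. Deviations of samples with the same number had a median correlation of -0.009, and 6 of 20 samples correlated best with a sample of their own number. Depth limits the genes with the fewest counts, and 14 of the 66 were not tested. Near-identical copies and antisense overlap limit single values further. Causes of these shifts were not tested.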
